A study of Drosophila melanogaster with 4 samples.

Results

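The Bearded family genes measured in single early fly embryos were CG13465, BobA, Tom, Brd, Ocho and E(spl)m4-BFM. They were taken by symbol and make up 6 of the 7367 genes in the authors' normalized table without alleles, and all 6 have a row in the UMI count files. Of the 6, only Tom and Brd, 2 of the 2453 genes of the allele table, have separate maternal and paternal values. The genes were chosen by their normalized values along the embryos of this series, which rise steeply, so that rise is described below and was not tested.

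Bearded family proteins are small proteins that bind Neuralized, the ubiquitin ligase that drives endocytosis of the Notch ligand Delta, and block its action. In the blastoderm embryo most of the family is transcribed in the ectoderm and repressed by Snail in the mesoderm, where Neuralized is then free to act on Delta. Most of the genes stand in one cluster on the left arm of the third chromosome, and others, E(spl)m4-BFM among them, lie in the Enhancer of split complex, a cluster of Notch targets.

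The embryos were hybrids of virgin DGRP_737 mothers and DGRP_352 fathers, up to 3 h old, from flies kept at 25 °C and 60% humidity, and unfertilized eggs were profiled with them. Each individual was 1 barcode of 1 of 4 multiplexed CEL-Seq2 libraries, a 3' tag method that counts molecules through unique molecular identifiers (UMIs). The authors placed 245 embryos and 8 eggs in an order of developmental progress computed from the transcriptomes (pseudotime), and the order was cut here into 4 stretches of 61, 61, 62 and 61 embryos. A further 105 embryos and 26 eggs of the barcode table are not in the order.

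Median depth fell from 907317 UMIs per embryo in the first stretch through 835968 and 672194 to 568460 in the last, and embryos of the order ranged from 163287 to 1802671 UMIs. The eggs of the order had between 278007 and 2069031 UMIs. The labels do not explain the digit after the first letter of an individual's name, but it followed the order in the first 3 stretches: the 61 embryos of the first stretch carried a 1, 56 of the 61 in the second carried a 2, and the third stretch held 29 embryos with a 2 and 32 with a 3. The last stretch was mixed, with 40 embryos that carried a 3, 14 a 2 and 7 a 1. Embryo E3C.21 stood apart in its parental signal and egg U2O.02, outside the order, in its members' levels. Main results that rest on them are given with and without them. The highest count of any gene was 4092 in every library, just under the 4096 molecules that a 6-base UMI can tell apart. The highest count of CG13465, 2514, is 61.4% of that ceiling and would be 3897 if corrected for repeated UMIs, so its top values are compressed.

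In the BDGP6.54 annotation, 5 of the genes lie within 32311 bases of chromosome 3L, from position 14943730 to 14976040, and these are the only protein-coding genes in that interval. CG13465 (14943730 to 14944331) and BobA (14945499 to 14946125) lie on the minus strand. Tom (14969344 to 14970306), Brd (14972667 to 14973198) and Ocho (14974848 to 14976040) lie on the plus strand. E(spl)m4-BFM lies on 3R, from 26023821 to 26024579, on the minus strand. Every one of the genes is a single exon and overlaps no other annotated gene. CG13465 and BobA encode 78 codons each and Brd 81, while Tom has 158, Ocho 149 and E(spl)m4-BFM 152. Whether reads of CG13465 and BobA can be exchanged in counting was not tested, and their separate values are uncertain to that extent.

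All 6 genes were near the egg level at the start of the order and 66.9 to 110 times higher in its last stretch. In all 6, the lowest last-stretch embryo was above the highest first-stretch embryo and the highest egg. The rank correlation of value and place (Spearman's rho) was 0.953 for CG13465, 0.948 for BobA, 0.942 for E(spl)m4-BFM, 0.941 for Brd, 0.936 for Tom and 0.917 for Ocho. A rho of at least 0.5 was reached by 999 of 7170 genes, 13.9%, and CG13465 and BobA ranked first and second among them. Within embryos that share a name digit the rho was lower, from 0.316 to 0.934 over the genes and digits.

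**Figure D1:**
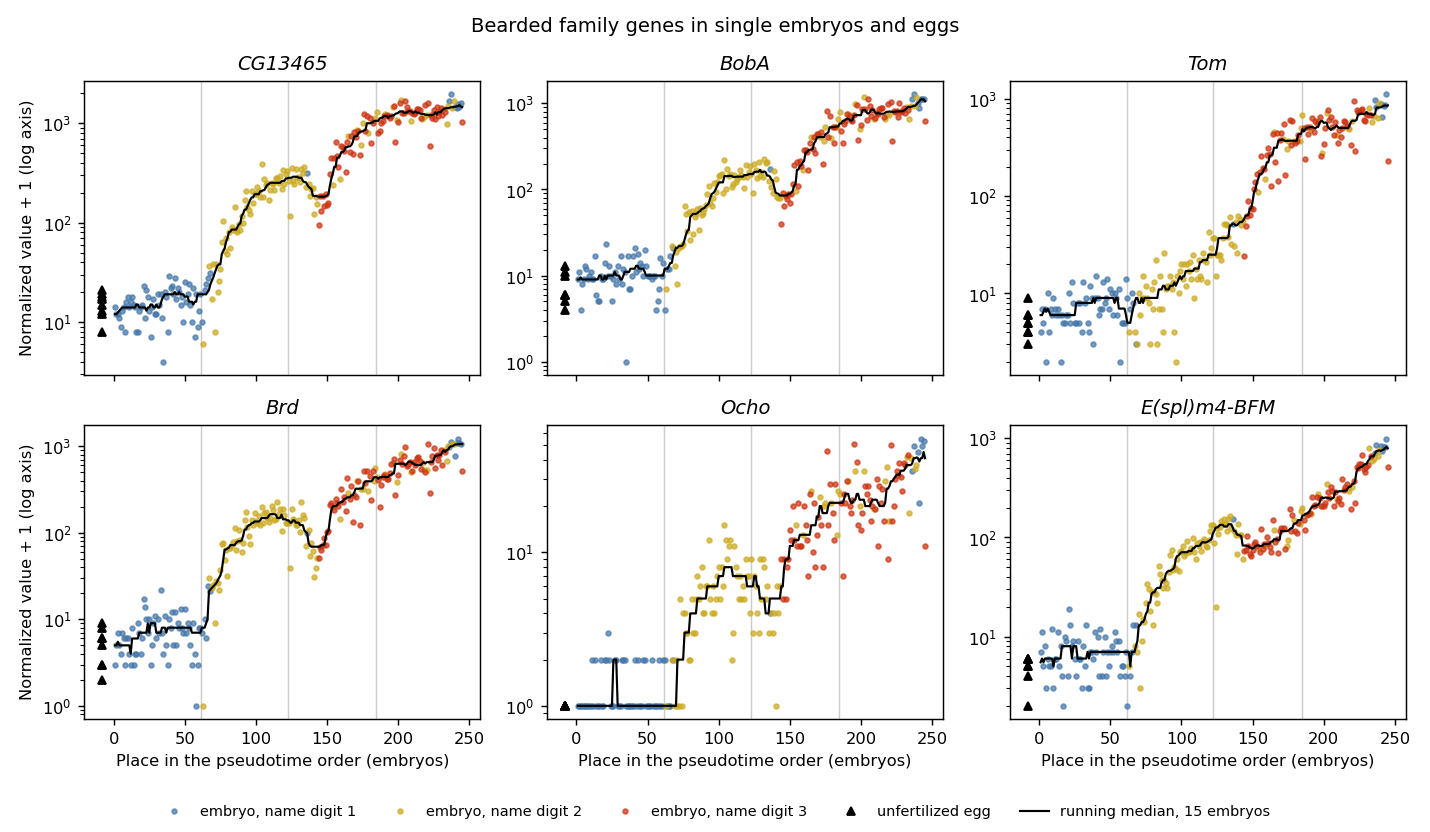
Authors' normalized value plus 1 of each gene (log axis) against the place of the embryo in the order, with 1 point per embryo coloured by the digit in its name, black triangles for the 8 eggs of the order and a running median over 15 embryos; grey lines part the stretches. CG13465, BobA, Brd, Ocho and E(spl)m4-BFM rose in the second stretch, dipped to differing depths between places 133 and 156 and rose again, while Tom stayed low for longer.

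CG13465, a gene still named only by its number, had the highest values of the family. In the 8 eggs its normalized value lay between 7 and 20, median 15. The lowest, median and highest values were 3, 14 and 28 in the first stretch, 5, 134 and 384 in the second, 93, 348 and 1227 in the third and 588, 1274 and 1943 in the last. The first-stretch embryos overlapped the eggs over nearly their whole range, and no last-stretch embryo overlapped either.

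BobA (Brother of Bearded A), its neighbour, followed at a lower level. Eggs had values of 3 to 12, median 5. Its median was 9 in the first stretch (0 to 22), 65 in the second (3 to 222), 193.5 in the third (39 to 814) and 798 in the last (343 to 1272). The mean of the last stretch was 809 ± 205 (SD, n = 61), against 1282 ± 254 for CG13465.

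Brd, the founding member, whose gain-of-function alleles give extra bristles, rose most in relative terms in the second stretch. Its median was 4.5 in eggs (range 1 to 8), 6 in the first stretch (0 to 21), 104 in the second (0 to 223), 180 in the third (30 to 557) and 654 in the last (199 to 1224). The second-stretch mean was 15.8 times the first-stretch mean, against 8.29 to 12.8 times for CG13465, BobA, Ocho and E(spl)m4-BFM.

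Tom (Twin of m4), a Neuralized inhibitor when overexpressed, was the exception to the second-stretch rise. Its median was 4 in eggs (range 2 to 8), 6 in the first stretch (1 to 14), 11 in the second (1 to 42), 131.5 in the third (14 to 601) and 590 in the last (226 to 1102). The second-stretch mean, 12.7 ± 8.30 (SD, n = 61), was only 2 times the first-stretch mean, 6.36 ± 3.08, and the ranges overlapped. The third-stretch mean was then 15.1 times the second, where the other 5 genes rose by 2.10 to 3.28 times.

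Ocho had the lowest values. None of the 8 eggs had a UMI of it, and 42 of the 61 first-stretch embryos were at 0. For counting error alone, 0 UMIs allow up to 3 in an egg taken singly, and fewer per egg over the 8 together. Its median was 4 in the second stretch (0 to 14), 9.5 in the third (0 to 45) and 26 in the last (6 to 54). Its highest count in any embryo was 65 UMIs, so single molecules set its early values.

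E(spl)m4-BFM, the member from the Enhancer of split complex, gained most at the very end. Its median was 4.5 in eggs (range 1 to 5), 6 in the first stretch (1 to 18), 46 in the second (1 to 133), 105.5 in the third (19 to 195) and 315 in the last (118 to 994). Over successive groups of 12 embryos its median went from 236 at places 193 to 204 to 657.5 at places 229 to 240, and it was 819 in the final 5 embryos, 4 of which carried the name digit 1. Within the embryos with a 3 alone the rho of E(spl)m4-BFM with place was 0.934. CG13465 had medians of 1221, 1417 and 1462 in the same places.

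The onset of each gene was read from a running median over 15 embryos, as the place where it first reached 10% of the way from the mean of the first stretch to that of the last. Ocho reached it at place 85, Brd at 86, E(spl)m4-BFM at 93, CG13465 at 94 and BobA at 96, and Tom at 148. The median stayed above the level from then on for CG13465, E(spl)m4-BFM and Tom. For the others it fell back, and stayed above it from place 151 for BobA, 149 for Brd and 136 for Ocho. These later places depended on the window: with 31 embryos they were 96, 85 and 86. In the 4 libraries taken one at a time, the place from which the median stayed above the level was 80 to 129 for the 5 early genes and 148 to 160 for Tom, with an SD over libraries of 3.30 to 13.9 places for each gene. Tom came last in each of the 4 libraries, and the order among the other 5 is within that spread.

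On the way to the mean of the last stretch, the order of the genes was another one. Tom and Ocho reached 50% at place 165, CG13465 at 169, BobA at 175 and Brd at 176. E(spl)m4-BFM, among the early genes at the 10% level, reached 50% last, at place 192.

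**Figure D2:**
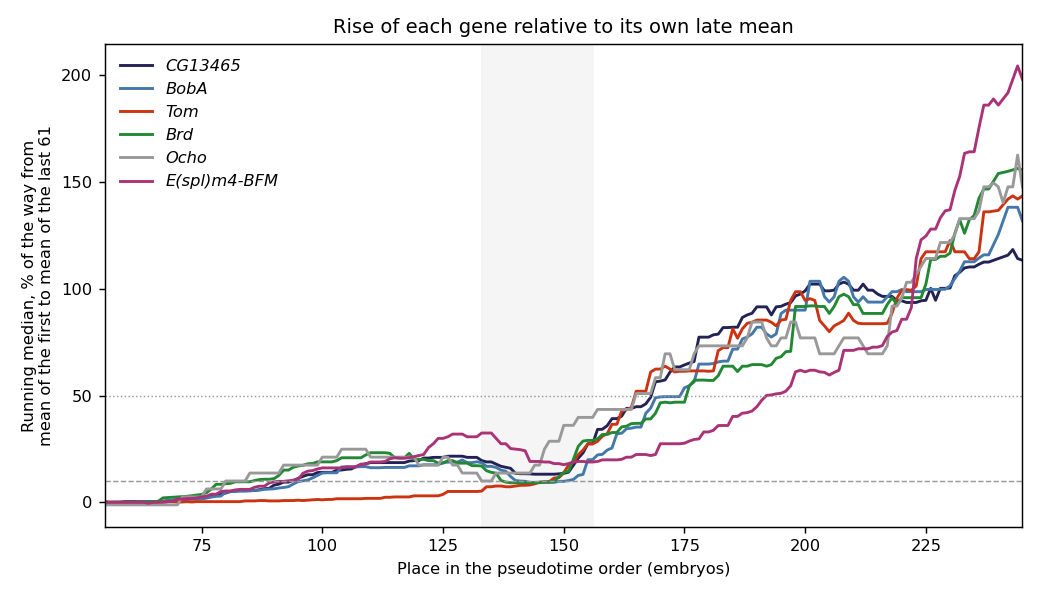
Running median over 15 embryos of each gene, as a percentage of the way from its mean in the first stretch to that in the last, against the place in the order; dashed and dotted lines mark 10% and 50%, and grey marks places 133 to 156. Tom crossed 10% at place 148, after the other 5 genes, and E(spl)m4-BFM crossed 50% at place 192, after the other 5.

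Between the 2 rises, CG13465, BobA and Brd dipped, Ocho and E(spl)m4-BFM did so in single groups of embryos, and Tom did not. From the highest early group of 12 embryos to the lowest later one, the median of CG13465 went from 284.5 to 189.5, BobA from 159 to 89.5, Brd from 162 to 65.5, Ocho from 7 to 3 and E(spl)m4-BFM from 130.5 to 79.5. Tom went from 50 at places 133 to 144 to 98 at places 145 to 156. In CPM (UMI counts scaled to a common total per individual) the lower group was 0.915 times the higher for CG13465, 0.755 for BobA, 0.443 for Brd, 0.669 for Ocho and 0.801 for E(spl)m4-BFM.

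For CG13465, BobA and E(spl)m4-BFM the lowest group was at places 145 to 156, where 11 of the 12 embryos carried the name digit 3, and none of those at places 121 to 132 did. For Brd and Ocho it was the group before, at places 133 to 144, where 10 of the 12 embryos carried a 2 and 1 a 3. At places 145 to 156 the median of Brd was 102.5 and that of Ocho 10.5. Within the embryos with a 2, Brd had a median of 141.5 at places 97 to 132 (n = 36) and 70 at places 133 to 156 (n = 11), while CG13465 had 250.0 and 222. Brd fell between these places in libraries 1, 2 and 4, from 135.0 to 87, from 168.0 to 62 and from 158.5 to 72.5. In library 3 it went from 129.0 to 153.5, and CG13465 from 243.0 to 315.5. The groups of 12 were picked as the highest and the lowest, and between the whole of places 97 to 132 and 133 to 156 the median of E(spl)m4-BFM went only from 87.5 to 87 and that of Ocho from 6 to 5, against 250.0 to 204.5 for CG13465, 143.5 to 93 for BobA and 141.5 to 81 for Brd. Without embryo E3C.21 the later medians were 193 for CG13465, 91 for BobA, 75 for Brd, 5 for Ocho and 85 for E(spl)m4-BFM. The part of the name digit in the dip was not tested.

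The members were also compared embryo by embryo. Over all 245 embryos the rho between 2 members was 0.900 to 0.984, which the shared rise gives. After the running median of log2(value + 1) was subtracted, the embryos of the third and last stretches gave a median rho of 0.546 over the 15 pairs, from 0.368 for CG13465 with Ocho to 0.855 for CG13465 with BobA. Within the 4 libraries the median was 0.265, 0.497, 0.584 and 0.7005, and without embryo E3C.21 it was 0.539. The same residuals correlated with those of 4709 other genes at a median of -0.10, with a 95th percentile of 0.342. They also correlated with the total UMIs of the embryo, at 0.442 to 0.697.

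With CPM in place of the deposited values the median over the pairs was 0.158, and CG13465 with BobA (0.798), CG13465 with Brd (0.529) and BobA with Brd (0.515) were the highest. Tom with E(spl)m4-BFM went from 0.706 to 0.311 and CG13465 with E(spl)m4-BFM from 0.525 to 0.0072. On this scale, residuals of members and 4398 other genes had a 95th percentile of 0.242, and residuals correlated with total UMIs between -0.247 for CG13465 and 0.397 for E(spl)m4-BFM. These correlations describe embryos that share libraries and depth, and were not tested.

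**Figure D3:**
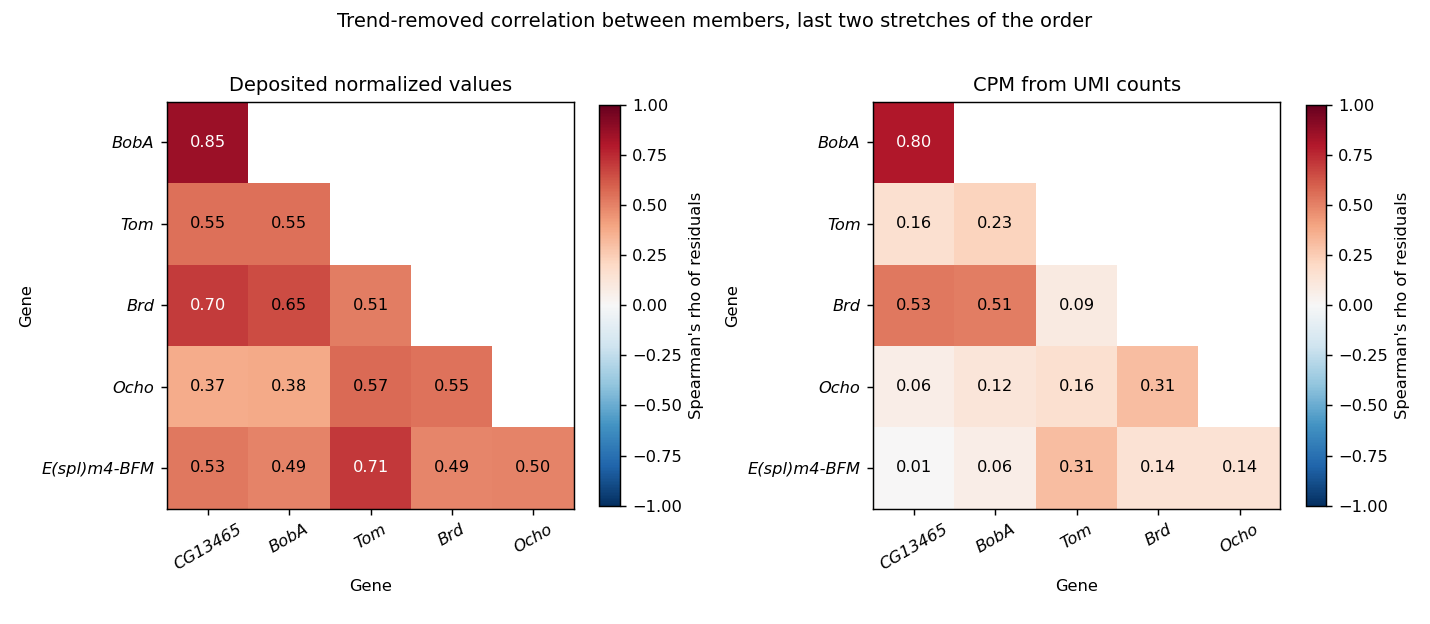
Spearman's rho between the residuals of each pair of genes over the embryos of the third and last stretches, from the deposited normalized values (left) and from CPM (right), on a colour scale from -1 to 1. The pair CG13465 and BobA was highest on both scales, at 0.855 and 0.798, and every pair was lower in CPM.

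The genes most like the members along the order, by the mean rho with all 6 over 245 embryos, were slp1 (0.932), noc (0.9205), CG34224 (0.915), CG4440 (0.901) and lncRNA:marge (0.900). The pair-rule gene slp1 had a mean of 1.79 ± 1.31 in the first stretch and 216 ± 66.8 in the last (SD, n = 61 each). The noncoding gene lncRNA:marge lies just beyond Ocho, at 14976626 to 14977631 of 3L, and went from 10.5 ± 5.67 to 312 ± 91.98. The nearest protein-coding genes on either side, DCX-EMAP and CG3349, had 62 and 99 UMIs in all individuals together.

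Other genes of the family and of the Notch pathway were set beside the members. Among the other Bearded family genes, E(spl)malpha-BFM (rho 0.849) and E(spl)m2-BFM (rho 0.546) both met the rho of 0.5, against 13.9% of all genes, with a median rho of 0.70 for the list and -0.54 for all genes. They came later than the members: E(spl)malpha-BFM had a mean of 7.23 ± 5.64 in the third stretch and 143 ± 147 in the last, and E(spl)m2-BFM 0.952 ± 1.23 and 25.95 ± 35.5. E(spl)m6-BFM is not in the normalized table and had a mean of 1.37 CPM in the last stretch, and BobB and BobC were not analysed here.

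Of the 7 Enhancer of split bHLH genes, which encode the transcriptional repressors that Notch induces, 3 met the rho of 0.5: E(spl)m7-HLH (0.893), E(spl)m5-HLH (0.881) and E(spl)m8-HLH (0.856). The others ran from 0.275 for E(spl)mdelta-HLH to 0.433 for E(spl)mbeta-HLH. E(spl)m5-HLH went from 2.57 ± 1.84 in the first stretch to 218 ± 152 in the last. Among 7 Notch ligand, receptor and trafficking genes with a mean of at least 1, neur, which encodes Neuralized, met it (0.841), as did the presenilin gene Psn (0.675), and numb met the rho of -0.5 (-0.81). The value of neur was 30.9 ± 6.74 and 31.9 ± 6.35 in the first 2 stretches (SD, n = 61 each), then 116 ± 57.6 in the third and 184.9 ± 38.1 in the last (SD, n = 62 and 61). Delta (Dl), not in the normalized table, went from a mean of 308 CPM in the first stretch to 1563 CPM in the last. Of the nuclear factors Su(H), H, mam and gro, only Hairless (H) met a threshold, at -0.65. A rho of 0.5 or higher was met by 13.9% of all genes. A rho of -0.5 or lower was the common outcome, met by 52.5% of all genes.

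Of 5 dorsoventral regulators, twi, sna, sim and zld met the rho of 0.5, against 13.9% of all genes, and dl met -0.5, as did 52.5% of all genes. Snail (sna), the repressor of the family in the mesoderm, went from 1.70 ± 1.36 in the first stretch to 11.6 ± 7.76, 97.3 ± 43.5 and 122.8 ± 34.8 in the later ones, with a rho of 0.909. Whole embryos were sampled, so a change in the number of cells that express a gene and a change in RNA per cell cannot be told apart. Marker genes of mesoderm (4 of 5), neurogenic ectoderm (5 of 5) and dorsal ectoderm (4 of 5) also met the rho of 0.5, against the same 13.9%. Of 3 pole cell markers and 4 maternal RNA markers with a mean of at least 1, 3 each met -0.5 and none met 0.5. Their part in the members' rise was not tested.

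Individuals that the order does not contain were not used to choose the genes. They have no place along the rise, so embryos were tested against eggs there, and the rise itself was not. With at least 100000 UMIs each, 74 embryos and 19 unfertilized eggs remained, with median depths of 599606 and 443047 UMIs. CG13465 had a lowest, median and highest level of 4.47, 18.1 and 177 CPM in eggs and 8.57, 75.9 and 2553 CPM in embryos. BobA had 0, 13.2 and 88.7 CPM in eggs and 0, 82.99 and 2004 CPM in embryos. Eggs and embryos overlapped at the low end, and the highest embryos were far above every egg.

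Tom had 0, 10.3 and 92.2 CPM in eggs and 5.96, 299.8 and 1425 CPM in embryos, the highest embryo median of the family. That place depended on the name digit: the median of Tom was 532.5 CPM in the 39 embryos with a 1, 276.0 CPM in the 20 with a 3 and 36.5 CPM in the 15 with a 2, where CG13465 had 126.8 CPM and the highest median. Brd had 0, 8.90 and 135 CPM in eggs and 0, 48.6 and 2325 CPM in embryos. Ocho had a median of 0 CPM in eggs, where 15 of 19 had no UMI, and 10.9 CPM in embryos. E(spl)m4-BFM had 6.29 CPM in eggs and 71.5 CPM in embryos at the median.

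All 6 genes were higher in embryos, by edgeR's quasi-likelihood test with library as a covariate and Benjamini-Hochberg adjustment over 6233 genes. The log2 fold change was 5.48 ± 0.68 (SE, adjusted p = 1.7e-11 in edgeR) for Tom, 5.16 ± 0.80 for Ocho, 5.09 ± 0.84 for BobA, 5.00 ± 0.78 for E(spl)m4-BFM, 4.98 ± 0.89 for Brd and 4.55 ± 0.78 for CG13465. The largest of the 6 adjusted p-values was 5.13e-07, for Brd, in edgeR. Ocho, with no UMI in 15 of 19 eggs, passed the filter on low counts through the embryos where it was high. With no filter all 6 were still called higher. Their log2 fold changes then ran from 4.48 for CG13465 to 5.40 for Tom, with 5.08 for Ocho. Embryos were higher than eggs in 48.3% of all genes tested and lower in 30.4%, and the median log2 fold change over all genes was 0.38, so the direction of the members was the more common one. By log2 fold change the members ranked between 867 and 1070 of 6233. The p-values measure the spread between the individuals sampled, and the labels do not say how many collections these came from.

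Egg U2O.02, from library 1, stood above the other 18 eggs in all 6 genes, with 177 CPM of CG13465, 135 CPM of Brd, 103 CPM of E(spl)m4-BFM, 92.2 CPM of Tom, 88.7 CPM of BobA and 10.6 CPM of Ocho. In the other 18 the highest values were 53.7 CPM for CG13465, 28.9 CPM for BobA, 25.2 CPM for Tom, 69.3 CPM for Brd, 1.78 CPM for Ocho and 40.6 CPM for E(spl)m4-BFM. Without it the log2 fold change was 6.03 for Tom, 5.90 for Ocho, 5.55 for E(spl)m4-BFM, 5.43 for BobA, 5.39 for Brd and 5.03 for CG13465. Measured against the other 18 eggs, 28 of the 74 embryos were above every egg in all 6 genes and 9 in none. Fewer than all reached the lowest CPM of the last stretch of the order. The counts were 14 embryos for CG13465, 18 for BobA, 20 for Brd, 24 for E(spl)m4-BFM, 26 for Tom and 30 for Ocho.

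These embryos have no place along the order, so the counts below give no sequence of the genes. Each gene was set against its own highest egg. For Brd, among the 18 eggs other than U2O.02, that was U3A.06, with 173233 UMIs and 69.3 CPM. The next of these eggs, U1O.04, had 40.6 CPM of Brd, so the count for Brd depends on egg U3A.06. Tom was above the 18 eggs in 60 embryos, Ocho in 53, E(spl)m4-BFM in 47, BobA in 44, CG13465 in 40 and Brd in 31. With egg U2O.02 included the counts were 54 for Tom, 39 for Ocho, 37 for BobA, 33 for E(spl)m4-BFM, 30 for CG13465 and 26 for Brd. Tom was above the eggs without Brd in 31 embryos, and Brd without Tom in 2. Along the order Brd reached 10% of its late level at place 86 and Tom at 148. The highest level of the Notch ligand gene Ser was 3.75 CPM among the embryos of the order, and 58 of the 74 embryos outside it were above that.

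**Figure D4:**
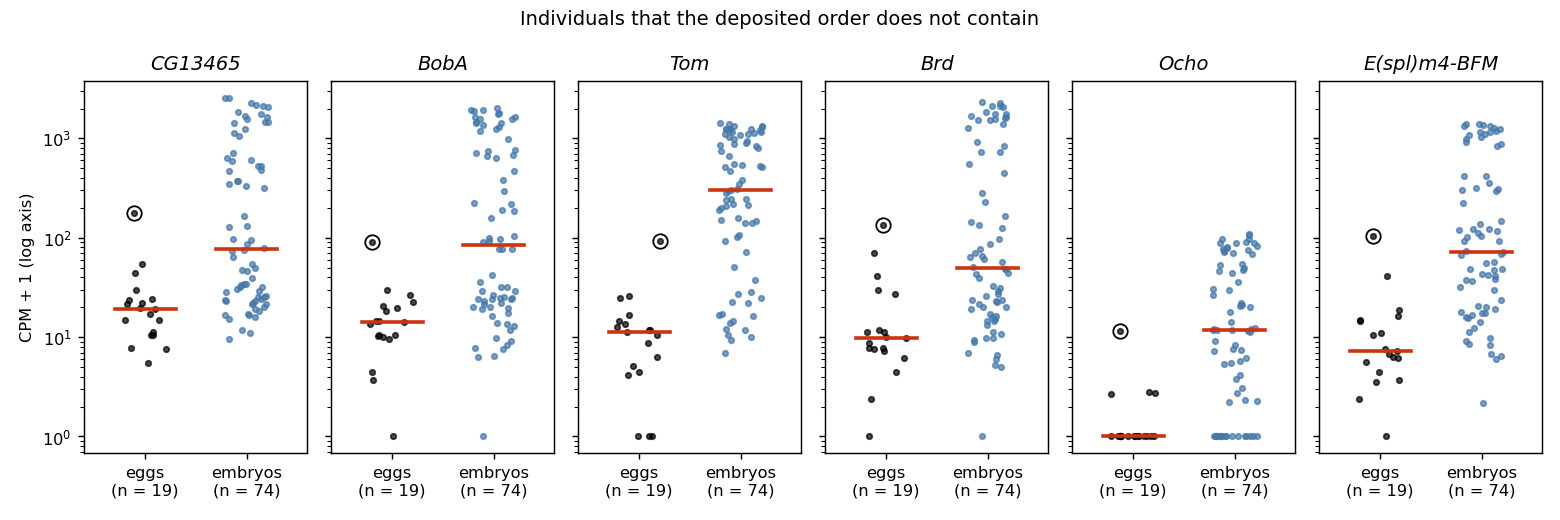
CPM plus 1 (log axis) of each gene in the 19 eggs and 74 embryos with at least 100000 UMIs that are not in the authors' order; each point is 1 individual, red bars are medians and the ring marks egg U2O.02. Tom had the highest embryo median, 299.8 CPM, and the ringed egg was the highest egg for every gene.

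Related genes and markers of several tissues were higher in these embryos too. E(spl)malpha-BFM had a median of 0 CPM in eggs and 112 CPM in embryos, and E(spl)m2-BFM 0 and 85.2 CPM. The 3 other Bearded family genes and 7 Enhancer of split bHLH genes with a row passed the edgeR test as higher, but they were near 0 in eggs and entered it through the embryos where they were high. With no filter on low counts the same 3 of 3 and 7 of 7 were called, where 46.8% of 13197 genes were. Mesoderm markers were higher in 4 of 4 tested, neurogenic ectoderm markers in 4 of 4 and dorsal ectoderm markers in 3 of 3, against 48.3% of all genes. The filter bears on these counts as well, since it left some markers out. With no filter they were 5 of 5, 5 of 5 and 4 of 5, against 46.8% of 13197 genes. Of maternal RNA markers 2 of 4 were lower, bcd with a log2 fold change of -3.62 ± 0.43 and swa with -2.53 ± 0.40, and of pole cell markers 1 of 2, against 30.4% of all genes. With no filter 3 of 5 maternal RNA markers and 4 of 5 pole cell markers were lower, against 2308 of the 13197 genes. The part of these markers in the members' difference was not tested. Of the 10 Notch ligand, receptor and trafficking genes, 6 were higher and 1 lower, and neur was higher by 1.65 ± 0.38 on the log2 scale. Of 4 nuclear factors, mam was higher and gro, H and Su(H) were lower.

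For Tom and Brd, the authors gave maternal and paternal values, derived from known variants and on a scale of their own. All embryos came from the same direction of cross, so parent of origin and strain cannot be told apart in these values. In the last 61 embryos, Tom had a maternal value of 329 ± 167 and a paternal value of 374 ± 161 (SD, n = 61). The paternal share, paternal over the sum of both per embryo, had a lowest, median and highest value of 45.9%, 53.98% and 62.6% and a mean of 54.2% ± 3.41. The paternal value was the higher in 55 of 61 embryos. A two-sided sign-flip permutation test over 2062 genes gave p = 1e-05, the smallest it can give, and an adjusted p of 1.83e-05.

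For Brd the maternal value was 240 ± 89.4 and the paternal value 225 ± 85.9. The lowest, median and highest paternal shares were 42.4%, 48.5% and 55.6%, and the mean was 48.4% ± 3.06. The maternal value was the higher in 43 of 61 embryos, with an adjusted p of 0.000291 in the same permutation test. The paternal value was the higher in 8.97% of all genes tested and the maternal one in 70.1%, and the median share over genes was 31.9%. Tom's direction was thus the rarer one and Brd's the common one, at a share much nearer to even. Genes with RNA already present in eggs were not set apart among these genes. A mean share between 40% and 60% was not rare, with 525 of the 2062 genes tested. E(spl)malpha-BFM, another gene of the family, had a mean share of 31.4% ± 25.9 (adjusted permutation p = 0.000182). Its mean maternal and paternal values were only 6.15 and 4.41. Other genes of the lists had mean shares from 18.1% ± 19.5 for sog to 74.1% ± 35.3 for numb. Among them were Ance at 56.7% ± 31.8 and tup at 55.4% ± 35.1, so a share near even was not particular to Tom and Brd.

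Tom and Brd, with 2360 bases between them, differed within the same embryos. The paternal share of Tom exceeded that of Brd by 5.82 ± 4.16 percentage points (SD, n = 61), in 56 of 61 embryos, with p = 1e-05 in a two-sided paired sign-flip permutation test, the smallest it can give. For Tom the paternal value was higher in each of the 4 libraries taken alone, with mean shares of 53.5% to 54.8%. For Brd the test was not passed in library 1 (adjusted permutation p = 0.106) or in library 4 (adjusted permutation p = 0.657), where the mean share was 49.6%. Which known variants lie in each gene, and whether reads of either allele are counted equally well, was not tested.

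Before the late stage the share of both genes was already near even. The summed share of all other genes was far lower, but abundant RNAs weigh most in it. Shares of single other genes were not compared in these stretches. The members' summed share was 51.9% ± 18.2 in the first stretch, 50.7% ± 7.25 in the second, 48.03% ± 7.78 in the third and 51.7% ± 2.36 in the last. The summed share of all other genes was 0.953% ± 0.304, 1.28% ± 0.492, 11.6% ± 6.99 and 25.2% ± 9.08 in the same stretches. The first-stretch shares rest on a mean summed maternal value of 10.4 and paternal value of 12.0 per embryo, and single embryos ran from 0% to 87.5%. Without embryo E3C.21 the third-stretch share was 48.8% ± 4.74.

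**Figure D5:**
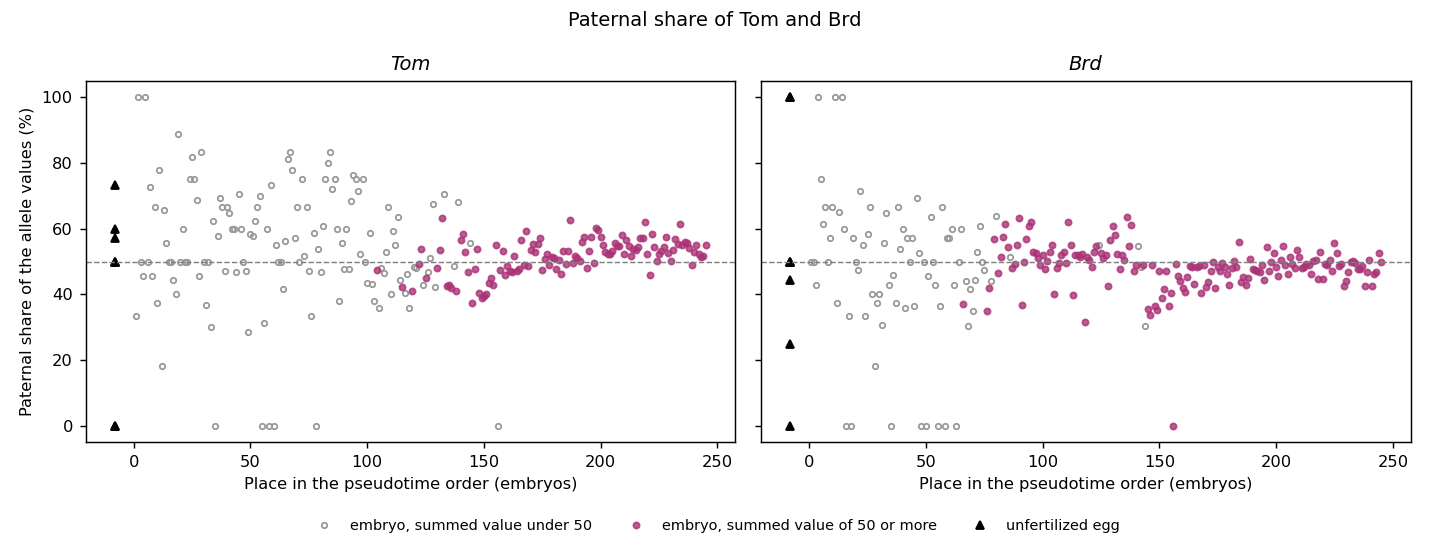
Paternal share of the allele values of Tom and Brd, in percent, against the place in the order, with 1 point per embryo (open where the summed allele value is under 50) and black triangles for the 8 eggs; the dashed line marks 50%. In the last stretch Tom's shares ran from 45.9% to 62.6% and Brd's from 42.4% to 55.6%, and embryo E3C.21 lies at 0% in both panels at place 156.

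Unfertilized eggs, which have no father, gave paternal values of these genes as well. Tom had a maternal value of 3.12 ± 0.835 and a paternal value of 3.62 ± 3.58 (SD, n = 8), and Brd 3.75 ± 3.06 and 3.50 ± 2.62. The summed share in eggs was 48.1% ± 11.8, from 33.3% to 65.2%, where all other genes gave 0.818% ± 0.306. The difference of 47.3 ± 11.7 percentage points was positive in 8 of 8 eggs, with p = 0.0078125 in an exact two-sided sign-flip test, the smallest that 8 eggs allow. Any paternal value at all puts so small a sum above the other genes, so this test cannot show how even the share was. By gene, the shares of single eggs ran from 0% to 73.3% for Tom and from 0% to 100% for Brd. The mean summed share in eggs was near the members' 51.9% in the first stretch and 51.7% in the last. The mean summed maternal values were 6.88, 10.4 and 569.

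Values for RNA shared between barcodes stand beside this result. Barcodes that belong to no individual held 2299 to 2761 UMIs each on average, and 2.86 to 3.18 of these per barcode came from the 6 members. That is 1241 CPM of members in such barcodes, against 38.6 CPM in the eggs of the order, which held 30.3 to 76 member UMIs each by library. All individuals of a library together had 1669 to 1898 CPM of members, above the 1038 to 1347 CPM of these barcodes by library. CG13465 made up 36.1% of the member UMIs in barcodes of no individual, 42.9% in eggs, 33.6% in first-stretch embryos and 33.4% in the last stretch, and Tom 11.6%, 12.2%, 14.5% and 15.8%. The part of shared RNA in the early values was not tested.

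Within the last stretch the members' summed share did not follow the place in the order, with rho = -0.01 (permutation p = 0.921, Benjamini-Hochberg over 10 relations) and r = -0.02 (permutation p = 0.900). It was lower in deeper embryos, with a rho of -0.41 with total UMIs (adjusted permutation p = 0.0096) and an r of -0.46 (adjusted permutation p = 0.0015). With the 2 embryos of most unusual depth left out r was -0.44. The same step within a library took r from -0.52 to -0.20 in library 1, from -0.63 to -0.35 in library 2 and from -0.57 to -0.26 in library 3, so within these 3 it rested largely on those embryos, and from -0.36 to -0.46 in library 4. In the 4 libraries taken alone rho was -0.49, -0.57, -0.44 and -0.44, with adjusted permutation p between 0.171 and 0.184.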

How the data were processed

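CEL-Seq2 data of single embryos and eggs were used. The deposited UMI counts per gene and barcode name STARsolo in their file titles; its version is not given in the sources used here. Per the submitters' processing notes, Trim Galore 0.6.10, SAMtools 1.17, Picard, GATK 4.4.0.0 and R 4.2.1 and the builds dm6 and BDGP6 were used. The 2 normalized tables were made by the authors by a method not given in the sources used here, and their deposited numbers were handled as a score with no unit, with entries of 0.1 read as 0. Alleles came from variant calls, per the labels. Spike-ins were left out of totals.

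The members and the gene lists were chosen with earlier results of these data known, and all 6 members, genes of the lists and the 5 most alike genes are named. Individuals outside the order were compared with edgeR 4.0.16 (TMM, filterByExpr, library as a covariate) in R 4.3.3, with DESeq2 1.42.0 as an alternative, at an adjusted p under 0.05. Allele values were compared by sign-flip permutation with 100000 resamples in Python 3.11.15 and scipy 1.17.1, over genes seen in at least 10 of those embryos whose parental values summed to 1 or more on average. Both were tested on simulated data. The 4 libraries are batches of the same kind; trends along the order have no test. Gene positions are from Ensembl release 115, BDGP6.54. Other alternatives were the filter, the depth minimum, the scale, the window and each library left out.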

Additional observations from a re-analysis of the deposited data

Results flagged for a closer look

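Of 30 groups of 4 to 10 values checked for a value far from the rest, 5 had one, where chance gives about 1 in 20. Among eggs outside the order in library 2, egg U3B.14 had 43.7 CPM of CG13465 with the next egg at 20.3 CPM, and egg U1O.04 had 40.6 CPM of E(spl)m4-BFM with the next at 15.3 CPM. In library 3, egg U3A.23 had 28.5 CPM of Brd, against 10.8 CPM in the next egg, and 1.68 CPM of Ocho, where the other eggs were at 0. The mean of Brd in the last stretch of the order was 712 in library 1, against 676 in the nearest of the other libraries.

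Barcodes that belong to no individual, which no test uses, held the 6 members at 1241 CPM. That was above the 38.6 CPM in the unfertilized eggs of the order. In UMIs it was the other way round, with 2.86 to 3.18 member UMIs per such barcode and 30.3 to 76 per egg, by library. By library these barcodes held 1038 to 1347 CPM of members, below the 1669 to 1898 CPM of all individuals together.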

How the results depend on the processing

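All 6 log2 fold changes outside the order stayed positive and past the threshold in the 13 alternatives run for each, between 4.07 and 6.70, with edgeR or DESeq2 adjusted p up to 0.0295. The higher calls over all genes were 6171 with no filter and 1241 in library 4 alone (lower calls 296), and with 1 library left out 2732 to 2979. The shares of Tom and Brd and their difference kept direction and call in all 7 alternatives each. With 1 library left out, the rho of the summed share with place ran from -0.0694 to 0.0493, the latter without library 4.

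The place from which the running median stayed above the level, and not the place of first reach, was varied here. With 25% in place of 10%, it was 155 for CG13465 and Tom, 147 for Ocho and 170 for E(spl)m4-BFM. E(spl)m4-BFM first reached 25% at place 122. In the other settings the level was 10%. With CPM it was 102 for CG13465 and 86 for Ocho. With 31 embryos it was 96 for BobA, 85 for Brd and 86 for Ocho. With 1 library left out it ran from 92 to 95 for CG13465, 99 to 152 for BobA, 148 to 151 for Tom, 89 to 149 for Brd, 80 to 137 for Ocho and 91 to 93 for E(spl)m4-BFM. The cause was not tested.

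Within name digits 1, 2 and 3, added after seeing the data, the rho along the order was 0.56, 0.89 and 0.82 for CG13465, 0.44, 0.87 and 0.85 for BobA, 0.50, 0.73 and 0.87 for Brd and 0.39, 0.69 and 0.60 for Ocho. It was 0.48 and 0.77 for Tom in digits 1 and 3 and 0.32 and 0.91 for E(spl)m4-BFM in digits 1 and 2. For E(spl)m4-BFM it was 0.961 in CPM and 0.960 after the ceiling correction. The median trend-removed correlation was 0.158 in CPM, and 0.449 to 0.612 with 1 library left out. No paired analysis was possible because the 4 libraries are replicates of 1 group, so that no groups share replicate numbers; the sign-flip tests pair values within an embryo.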

Other observations

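Embryo E3C.21, at place 156 in library 3, had a depth of 696079 UMIs and 0 paternal signal for both genes. Its maternal values were 44 for Tom and 84 for Brd. Its share over all other genes was 0.702%, inside the range of the eggs (0.477% to 1.26%), where the 20 embryos around it had 7.87% to 21.7%. The summed share of Tom and Brd in those neighbours was 37.1% to 52.7%. The members themselves were above the median of the neighbours in 5 of 6 genes, with normalized values of 645 for CG13465 (neighbour median 343), 257 for Tom (158.5), 247 for Brd (201), 20 for Ocho (11) and 120 for E(spl)m4-BFM (82), while BobA had 110 (178). This embryo was picked after its values were seen.

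Egg U2O.02 had all 6 genes above the other eggs outside the order, from 10.6 CPM of Ocho to 177 CPM of CG13465. It has no allele values.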
